A study of Mus musculus with 9 samples.

Results

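The natural killer and C-type lectin receptor genes were taken by symbol, as every gene whose name starts with Klra, Klrb, Klrc, Klrd, Klre, Klrg, Klrh, Klri or Klrk, or is Clec followed by a digit and further characters. They accounted for 50 of 33844 regions around a transcription start site (TSS). The 49 accessible peaks that lie wholly on chromosome 6 between 128.3 and 130.4 Mb, the stretch that holds most of these genes, were added, out of 25915 peaks; 1 further peak crossed the lower edge and was left out. The rule used names and positions, not measured values. RefSeq lists 67 genes that meet the symbol rule, and the 17 others, Klrc1 and Klra8 among them, were not analysed here.

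ATAC-seq, which uses a transposase to cut open DNA and tag it for sequencing, was run at day 1 (P1), day 14 (P14) and day 56 (P56) after birth in hearts of CD1 (ICR) mice, an outbred strain. The 3 groups were P1, P14 and P56, with 3 libraries each, and the labels name no genotype or treatment that sets them apart. The growth protocol mentions an operation some days before collection, and whether these hearts had one is not stated. Each P1 library pooled 12 hearts and each later library 6 to 7, and per the labels' protocol nuclei were sorted with an antibody to Pcm1, a centrosomal protein that gathers at the nuclear envelope of cardiomyocytes. The groups follow the cardiomyocyte from the newborn to the adult heart.

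Natural killer (NK) cells read self and stress signals through receptors with a C-type lectin-like fold, whose genes lie side by side on mouse chromosome 6 in the NK gene complex. Ly49 receptors (the Klra genes) bind class I molecules of the major histocompatibility complex, NKG2 receptors pair with CD94, and Nkrp1 receptors bind the Clr proteins encoded next to them. The neighbouring Dectin clusters encode receptors with which myeloid cells sense fungi, dying cells and platelet-activating ligands. These receptors are known from immune cells, platelets and endothelium rather than from cardiomyocytes.

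Promoter sequences are shown for the 4 receptor genes whose TSS region was called lower at P56 and for Klra5, the most accessible Ly49 gene, because Ly49 genes share much of their sequence and reads near them can be hard to place. Each runs 5′ to 3′ on the gene's own strand, from 250 bases before to 50 bases after the start, and comes from RefSeq with the build GRCm38.p6. Capitals mark GCAATTTCCTC, a stretch found in 5 of the 7 Ly49 genes of the table that have a RefSeq promoter.
Klra17, chr6:129876623-129876922, minus strand: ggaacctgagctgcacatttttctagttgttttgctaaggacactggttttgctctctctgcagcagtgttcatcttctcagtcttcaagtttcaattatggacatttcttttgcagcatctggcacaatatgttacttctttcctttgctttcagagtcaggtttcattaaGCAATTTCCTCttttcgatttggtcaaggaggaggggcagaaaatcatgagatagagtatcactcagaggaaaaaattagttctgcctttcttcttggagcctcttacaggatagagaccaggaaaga
Klra7, chr6:130233273-130233572, minus strand: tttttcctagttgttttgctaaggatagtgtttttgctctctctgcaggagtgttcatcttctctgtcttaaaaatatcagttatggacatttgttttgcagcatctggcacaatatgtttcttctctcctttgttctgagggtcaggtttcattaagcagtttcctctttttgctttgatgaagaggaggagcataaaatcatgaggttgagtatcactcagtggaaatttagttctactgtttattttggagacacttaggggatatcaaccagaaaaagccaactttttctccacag
Klra5, chr6:129913175-129913474, minus strand: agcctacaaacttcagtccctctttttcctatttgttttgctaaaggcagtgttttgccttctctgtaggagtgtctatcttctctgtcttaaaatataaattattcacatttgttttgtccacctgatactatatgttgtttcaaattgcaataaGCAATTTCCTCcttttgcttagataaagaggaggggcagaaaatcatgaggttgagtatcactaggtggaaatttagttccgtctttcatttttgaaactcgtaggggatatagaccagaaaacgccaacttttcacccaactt
Clec1b, chr6:129397047-129397346, plus strand: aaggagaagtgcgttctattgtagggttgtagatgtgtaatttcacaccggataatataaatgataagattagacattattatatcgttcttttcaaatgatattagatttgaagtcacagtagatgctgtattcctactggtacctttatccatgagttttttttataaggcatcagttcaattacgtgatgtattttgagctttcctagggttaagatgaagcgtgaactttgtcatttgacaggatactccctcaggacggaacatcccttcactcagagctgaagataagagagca
Clec4a2, chr6:123122440-123122739, plus strand: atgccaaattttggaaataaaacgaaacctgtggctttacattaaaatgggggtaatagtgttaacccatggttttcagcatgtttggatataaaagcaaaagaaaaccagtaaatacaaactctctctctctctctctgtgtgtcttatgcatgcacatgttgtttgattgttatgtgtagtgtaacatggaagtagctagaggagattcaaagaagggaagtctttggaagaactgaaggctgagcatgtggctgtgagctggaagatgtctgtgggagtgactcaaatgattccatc
RefSeq gives Klra7 a second promoter, at chr6:130231638-130231937, and the one printed spans the gene's 5′ end. The printed Klra17 and Klra7 promoters matched at 84.0% of 281 aligned bases and Klra17 and the second Klra7 promoter at 58.1% of 270. Those of Klra5 and Klra9 matched at 89.0% of 246, and those of Klra17 and Klra1 at 57.1% of 266. GCAATTTCCTC, searched on both strands, was in 19 of 32851 RefSeq promoters (0.0578%), and 9 of these 19 belonged to Klra genes. The printed Klra7 promoter does not hold it but shares the stretch TTTCCTCTTTT, which overlaps it, with Klra17, Klra2, Klra4 and Klra9; that stretch was in 49 promoters (0.149%). How the deposited counts treat reads that match several Ly49 genes is not given in the sources used here, so values of single Ly49 genes are uncertain as to which copy they come from.

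The receptor promoters were poor in CG pairs, with a median of 3 CG over 43 promoters of 38 genes, against 7 over all promoters. At least 10 CG were present in 6.98% of them and in 43.5% of all promoters, and the median GC content was 42.0% against 52.7%. On either strand, the Runx core TGTGGT was in 12 of 43 (27.9%, against 16.8% of all promoters), the Ets core CCGGAA in 1 (2.33%, against 14.9%), the GATA motif AGATAA in 4 (9.30%, against 11.2%), the T-box core GGTGTGA in 4 (9.30%, against 3.98%), and neither the E-box CACGTG (7.15% of all) nor the Mef2 core (0.164% of all) was in any. These are matches of letters only.

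Depth limits single values. Libraries held 481217 to 2167369 TSS counts and 316311 to 1217798 peak counts, and the P14 libraries were the shallowest. The share of TSS counts in the most accessible 10% of regions was 31.9% to 33.0% in P1 libraries, 34.1% to 35.3% in P14 libraries and 35.5% to 36.8% in P56 libraries; for peaks P1 replicate 1 had the lowest share (24.1%) and P56 replicate 2 the highest (29.8%). Summed TSS accessibility of 12 cardiomyocyte markers was 570 to 1236 CPM (counts relative to library size after TMM scaling) at P1 and 1177 to 2922 at P56, with P1 replicate 1 and P56 replicate 2 again at the ends. The part of these differences in the results below was not tested, and medians of receptor groups that moved by over 1.5 times without these libraries are given both ways.

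Receptor TSS regions sat at the middle of the table in level. Their median was 18.5 CPM over the 9 libraries, against 18.9 for all TSS regions, and 26 of the 50 lay at or below that median. Levels ran from 7.64 CPM for Clec9a, a receptor of dendritic cells for dying cells, to 87.9 CPM for Clec16a, a gene named for a lectin domain whose product works in endosomes and mitophagy. After Clec16a came Clec10a, a macrophage galactose lectin, with 68.7, 49.7 and 73.4 CPM in the P56 libraries. No member was at 0 in any library, and only 251 of all 33844 TSS regions were. Olfactory receptor genes, another clustered family, had a median of 11.8 CPM over 948 regions, and vomeronasal receptor genes 9.76 CPM over 213.

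The comparison of P56 with P1 asked how these regions differ between the newborn and the adult cardiomyocyte. Of 49 receptor TSS regions tested, 4 fell and 0 rose by edgeR's quasi-likelihood test (adjusted p below 0.05); over all TSS regions 0.806% were called lower and 1.72% higher. Clec4a4 did not pass the filter on low counts. The 4 were Klra17, Klra7, Clec1b and Clec4a2. Over the 49, 42 had a change below 0 (50.7% of all regions did), the median log2 change was -0.53 (all regions -0.01), and 20 had an unadjusted p under 0.05 in edgeR, every one of them lower (10.3% of all regions were lower at that p). In 21 of 50 every P56 library lay below every P1 library (13.3% of all regions), and in 1, Klrg2, every P56 library lay above (10.9%). DESeq2's Wald test gave an adjusted p to 7 of these members and called 0, with 12 at an unadjusted p under 0.05. Over all 33747 TSS regions it called 289 higher and only 3 lower, with 3962 at that unadjusted p in either direction. The olfactory and vomeronasal families had medians of -0.51 and -0.65 in the edgeR fit, with 32 of 937 and 7 of 210 called lower. A median below 0 was thus shared with other clustered receptor families. In bulk nuclei, fewer nuclei with an open region and less opening per nucleus cannot be told apart.

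Among the role groups of at least 4 genes the Ly49 genes had the lowest median, except without P56 replicate 1, where theirs and that of the Dectin-1 cluster were both -0.65. All 8 had a change below 0 at P56 (50.7% of all regions did), with a median log2 change of -0.78 (the difference P56 minus P1). In edgeR 7 had an unadjusted p under 0.05, each lower (10.3% of all regions were lower at that p). In either direction 7278 of all 33747 TSS regions had such a p, to be set beside the counts of the groups and lists below. In 5 Ly49 genes the P56 libraries all lay below the P1 libraries (13.3% of all regions). Their summed TSS accessibility was 237, 195 and 218 CPM at P1, 130, 167 and 154 CPM at P14, and 101, 132 and 137 CPM at P56. Every P1 library was thus above every later library, and the P14 and P56 ranges overlapped. The Ly49 median stayed between -1.07 and -0.65 under every alternative run, and was -0.94 with abundance offsets, which take out the trend of a library with mean level, and -0.92 with P1 replicate 1 and P56 replicate 2 both left out. The olfactory and vomeronasal medians with those offsets were -0.27 and -0.30, and that of all receptor genes was -0.34. Without both libraries they were -0.41, -0.63 and -0.30, in the same order.

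Klra17 (ENSMUSG00000014543, GRCm38 chr6:129831154-129876672, minus strand), which encodes Ly49Q, an inhibitory receptor of plasmacytoid dendritic cells, had 46, 31 and 49 reads in the P1 libraries, 16, 6 and 10 at P14, and 9, 9 and 11 at P56. In CPM these were 20.0, 21.2 and 25.7, then 17.8, 12.7 and 20.5, then 7.93, 6.77 and 12.8. The P56 libraries were all below the P1 libraries, and P14 lay between with some overlap of both. The mean fell from 22.3 ± 3.02 CPM (SD, n = 3) at P1 to 9.17 ± 3.21 at P56, a log2 change of -1.33 ± 0.301 (SE, edgeR adjusted p = 0.0167). Without P56 replicate 2 the call was lost (-1.14, edgeR adjusted p = 0.0992), and it was kept with each of the other 8 libraries left out.

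Klra7 (ENSMUSG00000067599, chr6:130218605-130233322, minus strand) encodes Ly49G, an inhibitory class I receptor. Its TSS held 37.4, 31.5 and 32.6 CPM in the P1 libraries, 11.1, 25.3 and 18.4 CPM at P14, and 11.5, 20.3 and 15.1 CPM at P56, from 86, 46 and 62 reads at P1 and 13, 27 and 13 at P56. No later library reached the lowest P1 library. The log2 change from P1 to P56 was -1.10 ± 0.274 (SE, edgeR adjusted p = 0.0297). Its call was lost without P1 replicate 1 (edgeR adjusted p = 0.0789), P1 replicate 2 (0.0675), P56 replicate 1 (0.0743) or P56 replicate 3 (0.0803), with log2 changes of -1.14 to -0.91, and when P56 and P1 were fitted alone (0.0651).

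The other Ly49 regions did not pass. Klra5, the Ly49E gene and the most accessible of the family, with 50.4, 56.2 and 56.7 CPM at P1 and 31.7, 30.1 and 38.4 CPM at P56, had a log2 change of -0.71 ± 0.232 (SE, edgeR adjusted p = 0.0805). Klra1, which encodes the inhibitory receptor Ly49A, went from 59.97, 42.5 and 44.6 CPM to 23.8, 35.4 and 29.1 CPM (-0.74, edgeR adjusted p = 0.0947). In both genes no P56 library reached a P1 library. Klra2, at 13.0, 11.0 and 14.2 CPM at P1 and 6.17, 3.01 and 6.99 CPM at P56, had a change of -1.30 (edgeR adjusted p = 0.0666) on 4 to 7 reads per P56 library. Klra9 (-0.82), Klra4 (-0.65, the activating receptor Ly49D) and the pseudogene Klra13-ps (-0.33) had edgeR adjusted p of 0.18, 0.201 and 0.582.

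**Figure D1:**
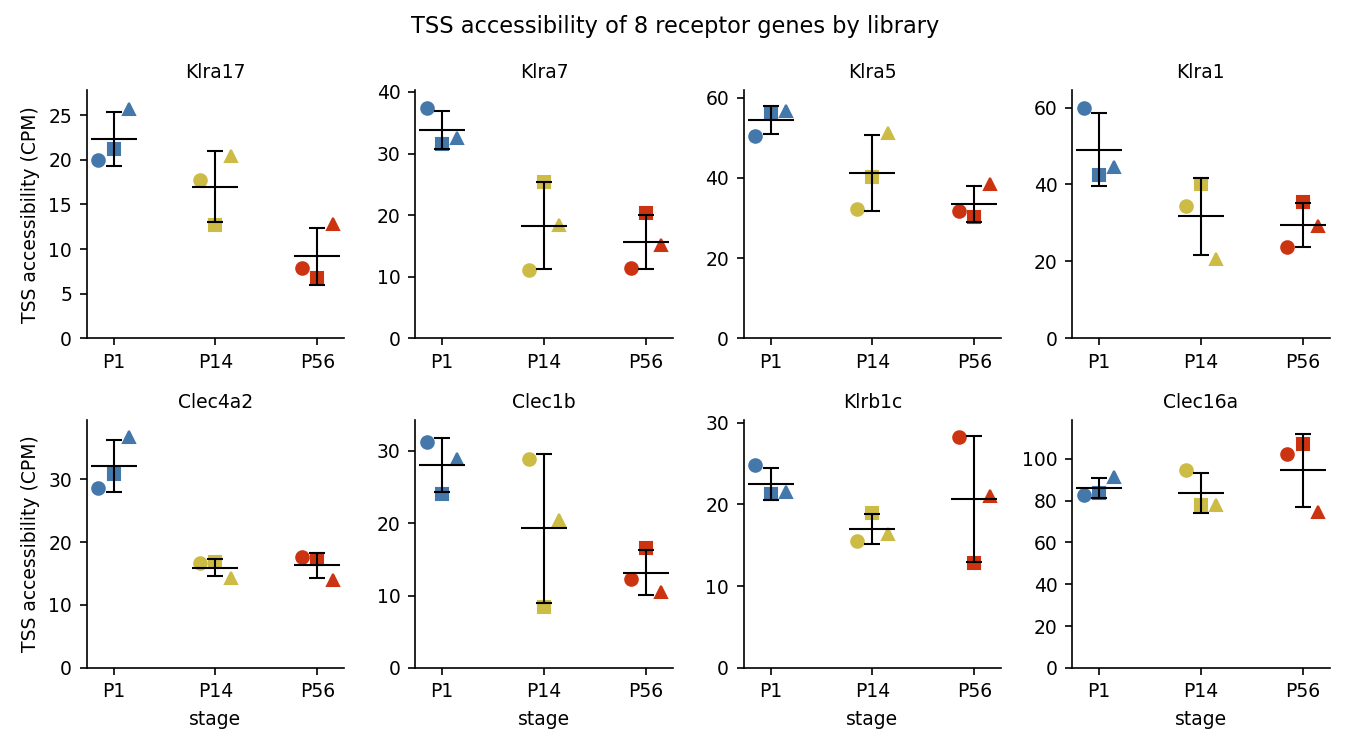
TSS accessibility in CPM (vertical axes, from 0) of Klra17, Klra7, Klra5, Klra1, Clec4a2, Clec1b, Klrb1c and Clec16a in each library at P1, P14 and P56. Circles, squares and triangles are replicates 1, 2 and 3, horizontal lines are means and bars the SD over 3 libraries. The P56 libraries lie below the P1 libraries in the first 6 genes, while in Klrb1c and Clec16a the stages overlap.

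Of the NKG2 and CD94 genes, Klrk1 and Klrd1 were in the table. Klrd1 encodes CD94, the partner chain of NKG2 receptors, and held 22.6, 24.7 and 30.5 CPM at P1 against 15.9, 17.3 and 9.32 CPM at P56 (log2 change -0.82 ± 0.274 SE, edgeR adjusted p = 0.0873). Klrk1, which encodes NKG2D, the receptor for stress-induced ligands, had 32, 13 and 37 reads at P1, 2, 2 and 3 at P14 and 10, 11 and 6 at P56. Its lowest stage was thus P14, at 2.22, 4.22 and 6.15 CPM, below every P1 and every P56 library. The log2 change from P1 to P14 was -1.90 ± 0.498 (SE, edgeR adjusted p = 0.407), the smallest p of all members in that comparison, and from P1 to P56 it was -0.82 (0.164). Neither passed.

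Among the 5 Nkrp1 genes edgeR called 0 at P56, with 1 at an unadjusted p under 0.05 (median -0.20, and -0.48 without P56 replicate 1). Klrb1 had a change of -0.78 (edgeR adjusted p = 0.0926), with 30.0, 21.9 and 31.5 CPM at P1 and 15.0, 15.0 and 19.8 CPM at P56. Klrb1c, which encodes NK1.1, the antigen used to identify NK cells in some strains, held 24.8, 21.2 and 21.5 CPM at P1 and 28.2, 12.8 and 21.0 CPM at P56, so the P56 libraries spanned the P1 libraries (-0.15, edgeR adjusted p = 0.765). Its direction changed with the library left out, from -0.48 to 0.14. Klrb1a (-0.13), Klrb1-ps1 (-0.20) and Klrb1f (-0.57) had edgeR adjusted p of 0.808, 0.694 and 0.348.

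The Clr group, taken as every gene named Clec2, holds genes for ligands of the Nkrp1 receptors. By its name it also includes Clec2l, whose promoter lies outside the window, at chr6:38662819-38663118. Of these 6 genes edgeR called 0, with 3 at an unadjusted p under 0.05. Their median was -0.29 (-0.16 without P1 replicate 1), with changes on both sides of 0. Clec2i had a change of -0.82 (edgeR adjusted p = 0.108) and Clec2g of -0.59 (0.172). Clec2d, which encodes the Nkrp1 ligand Clr-b, had the largest positive value of the group, 0.35 (0.463). Its P56 libraries, at 15.0, 32.4 and 22.1 CPM, spread around the P1 libraries, at 16.5, 18.5 and 20.5 CPM. Clec2j, with 0.19 (0.773), and Clec2l, with -0.01 (0.991), did not pass either.

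Of the remaining Klr genes, Klri1 and Klre1, which encode chains that pair with each other in a receptor of NK cells, had changes of -1.0 (edgeR adjusted p = 0.0845) and -0.78 (0.128). Klrg1, a cadherin-binding inhibitory receptor of mature NK and T cells, was highest at P14. It held 10.9, 13.7 and 13.1 CPM at P1, 23.3, 23.2 and 16.4 CPM at P14 and 7.93, 15.8 and 10.5 CPM at P56, so the P14 libraries were above all others. The log2 changes were 0.78 from P1 to P14 (edgeR adjusted p = 0.532) and -0.87 from P14 to P56 (0.393), and neither passed. Klrg2, outside the complex, had 25.6, 25.4 and 23.1 CPM at P1 and 31.7, 33.9 and 26.8 CPM at P56 (0.33, 0.435).

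In the Dectin-1 cluster 1 of 6 genes was called (0.806% of all TSS regions were called lower). All 6 had changes below 0 (50.7% of all regions did), with a median of -0.57. That median was -0.34 over 5 genes with P1 replicate 1 and P56 replicate 2 left out. Clec1b (ENSMUSG00000030159, chr6:129397297-129405413, plus strand) encodes CLEC-2, the platelet receptor for podoplanin. Its TSS held 31.3, 24.0 and 28.9 CPM at P1, 28.9, 8.44 and 20.5 CPM at P14 and 12.3, 16.6 and 10.5 CPM at P56. The P56 libraries were all below the P1 libraries, while P14 spread across both on as few as 4 reads. The log2 change from P1 to P56 was -1.07 ± 0.293 (SE, edgeR adjusted p = 0.0437). Of the 9 fits that left out a library, only that without P14 replicate 2 kept the call, and the other 8 gave edgeR adjusted p of 0.0526 to 0.122. It was also lost with DESeq2's size factors (0.0543), with abundance offsets (0.0822) and when P56 and P1 were fitted alone (0.0701).

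The other Dectin-1 cluster genes did not pass. Clec7a, which encodes Dectin-1, the beta-glucan receptor, had 12.2, 8.91 and 13.7 CPM at P1 and 8.81, 10.5 and 6.99 CPM at P56 (-0.38, edgeR adjusted p = 0.52). Clec9a had 11.7, 8.91 and 11.0 CPM at P1 and 5.29, 6.77 and 6.99 CPM at P56, with no overlap (-0.75, 0.209). Clec1a, of endothelial and myeloid cells, had a change of -0.54 (0.309), and Clec12a, an inhibitory myeloid receptor for uric acid crystals, of -0.42 (0.344).

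In the Dectin-2 cluster and among the macrophage lectins 1 of 12 tested genes was called (0.806% of all TSS regions were called lower). The median was -0.39, with 10 changes below 0 (50.7% of all regions). The median was -0.63 without P1 replicate 2, -0.61 without P56 replicate 1 and -0.17 with P1 replicate 1 and P56 replicate 2 left out. Clec4a2 (ENSMUSG00000030148, chr6:123122690-123143999, plus strand) encodes DCIR, an inhibitory receptor of myeloid cells, and lies outside the peak window. It held 28.7, 30.8 and 36.8 CPM at P1, 16.7, 16.9 and 14.3 CPM at P14 and 17.6, 17.3 and 14.0 CPM at P56. The later stages overlapped each other and stayed below every P1 library. The log2 change was -0.96 ± 0.254 (SE, edgeR adjusted p = 0.0381) from P1 to P56. From P1 to P14 it was -0.99 (edgeR adjusted p = 0.448). Of the 9 fits that left out a library, only that without P56 replicate 1 kept the P56 call, and the others gave edgeR adjusted p of 0.0545 to 0.111. Abundance offsets (0.0601) and the fit of P56 and P1 alone (0.0804) also ended it.

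Clec4d, which encodes MCL, the partner of Mincle, had a change of -0.75 (edgeR adjusted p = 0.127), Clec4n, which encodes Dectin-2, of -0.53 (0.292), and Clec4e, which encodes Mincle, of -0.17 (0.816). Clec4g, a lectin of liver sinusoidal endothelium, had 56.1, 49.3 and 59.3 CPM at P1 and 62.5, 33.1 and 43.1 CPM at P56 (-0.26, 0.538). Clec4f, a marker of Kupffer cells, had -0.03 (0.96), Clec4b2 had -0.22 (0.722), and Clec10a had the highest value of the group at 0.27 (0.447).

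The secreted, endothelial and other lectin genes had a median near 0, at -0.07 over 6 genes, and edgeR called 0, with 0 at an unadjusted p under 0.05. That median turned with the library left out, from -0.32 without P56 replicate 1 to 0.15 without P56 replicate 2, and it was 0.11 without P1 replicate 2. Clec16a had 82.6, 83.6 and 91.4 CPM at P1, 94.4, 78.0 and 77.9 CPM at P14 and 102, 107 and 74.6 CPM at P56, with all stages overlapping (0.15, edgeR adjusted p = 0.634). Clec14a, of the vascular endothelium, was at 19.1, 24.0 and 18.4 CPM at P1, 25.5, 25.3 and 24.6 CPM at P14 and 16.7, 15.0 and 10.5 CPM at P56, lowest at P56 and highest at P14. Its log2 changes were -0.49 (0.287) from P1 to P56 and -0.81 (0.39) from P14 to P56. Clec3b, which encodes tetranectin (-0.10), Clec11a, an osteogenic growth factor (-0.04), Clec3a of cartilage (-0.39) and Clec18a (0.40) did not pass, with edgeR adjusted p of 0.874, 0.939, 0.502 and 0.346.

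**Figure D2:**
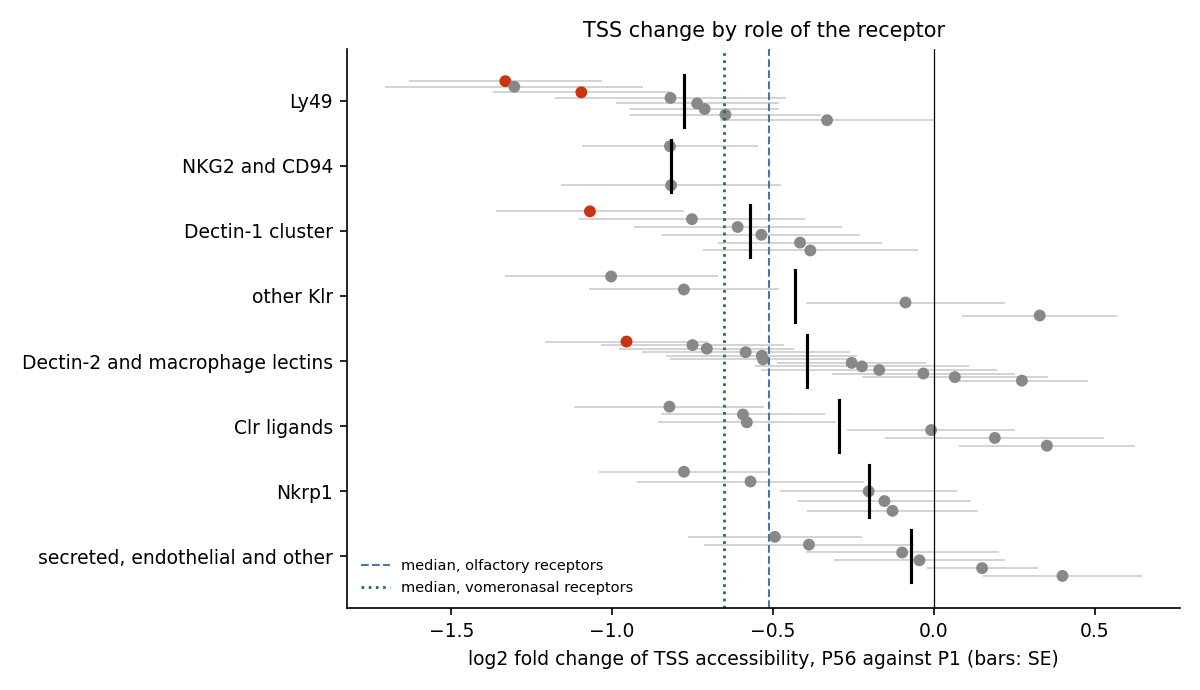
Log2 fold change of TSS accessibility from P1 to P56 (horizontal axis) for the 49 tested receptor genes, by role (vertical axis); bars are the SE of the edgeR fit, red points passed an adjusted p of 0.05 and black ticks are the medians of each role. The dashed and dotted lines are the medians of olfactory (-0.51) and vomeronasal (-0.65) receptor genes. All 8 Ly49 genes lie below 0, and the secreted and other lectins lie on both sides.

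By position, the 27 member genes inside the chromosome 6 window had a median change of -0.65 from P1 to P56, with 25 below 0 and 3 called. Over all TSS regions 50.7% had a change below 0 and 0.806% were called lower. The 22 tested members outside it had a median of -0.20, with 17 below 0 and 1 called, Clec4a2. Outside the window the median was -0.04 without P56 replicate 2 (13 of 23 below 0) and also without it and P1 replicate 1, -0.32 without P1 replicate 2 and -0.50 without P56 replicate 1. Inside it was -0.72 to -0.57 with each library left out and -0.46 without both. The difference between the positions was not tested.

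The comparisons of P14 with P1 and of P56 with P14 asked when changes took place. The first shares its P1 libraries with the comparison of P56 with P1, and the second its P56 libraries, so they are not independent of it. Of 49 receptor TSS regions, edgeR called 0 from P1 to P14 (over all regions 0.0119% were called higher and 0% lower) with 7 of 49 at an unadjusted p under 0.05 (8.59% of all regions), and DESeq2 called 0 with 3. The 7 were Klrk1, Clec4a2, Klra7, Klri1, Clec2g and Klra1, all lower, and Klrg1, higher. The median change was -0.36 (-0.22 without P1 replicate 3 or P14 replicate 2), and in 10 of 50 members every P14 library lay below every P1 library (7.92% of all regions), and in 2 every one lay above (8.99%). From P14 to P56 edgeR called 0 (0.00296% of all regions were called higher and 0% lower) with 5 of 49 at an unadjusted p under 0.05, near the share of all regions (10.1%), and DESeq2 called 0 with 4. The 3 smallest p were those of Klrg1, Clec14a and Clec2i (-0.99, edgeR adjusted p = 0.341). The median was -0.13, -0.25 without P56 replicate 1 and -0.20 without P1 replicate 3 or P14 replicate 2. In 6 of 50 members every P56 library lay below every P14 library (6.95% of all regions) and in 1 above (6.99%). Values at P14 rest on few reads, with 2 to 16 per library in Klrk1, Clec4a2, Klra7, Klra17 and Klra2.

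The 49 peaks showed the same stretch of chromosome without reference to gene starts. They were 837 to 4853 bp long. From P1 to P56 edgeR called 2 peaks lower and 0 higher (over all peaks 0.232% were called lower and 0.212% higher). The median log2 change was -0.65 (all peaks 0.03), 37 changes were below 0 and 12 above (47.6% and 52.4% of all peaks), and 23 had an unadjusted p under 0.05, 20 of them lower and 3 higher (9.77% and 6.27% of all peaks at that p). In 19 peaks every P56 library lay below every P1 library (10.1% of all peaks), and in 1 every P56 library lay above (8.53%). DESeq2 gave an adjusted p to 1 of the 49 and called 0, with 16 at an unadjusted p under 0.05. Over all 25885 peaks it called 64 higher and 13 lower, with 2636 at that unadjusted p in either direction. The median of the 49 was -0.44 without P1 replicate 1, -0.49 without P56 replicate 2 and -0.32 over 48 peaks without both.

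By stretch of the window, the Ly49 peaks had the lowest median. All 26 had changes below 0, from -1.64 to -0.43 with a median of -0.71, and in 16 the P56 libraries lay below all P1 libraries (10.1% of all peaks). The 15 peaks of the Nkrp1 and Clr stretch had a median of -0.19, with 8 below 0 and 0 called by edgeR (6 at an unadjusted p under 0.05). That median was -0.03 without P1 replicate 1 and with abundance offsets, -0.11 without P56 replicate 1, -0.31 without P56 replicate 3 and -0.36 without P1 replicate 3. The 3 peaks between the Dectin-1 and NKG2 genes had a median of -0.48 (-0.25 without P1 replicate 1, -0.27 without P56 replicate 2 and -0.03 without both). The 5 peaks before Klrb1a had a median of 0.32 (0.15 without P1 replicate 2, 0.58 without P56 replicate 1, and 0.07 without P1 replicate 1 and P56 replicate 2). Of these 5, 3 overlapped the promoters of Tulp3, Itfg2 and Fkbp4, which are not among the receptor genes. Summed accessibility of the Ly49 stretch was 1722, 1302 and 1259 CPM at P1, 980, 1068 and 922 CPM at P14 and 856, 714 and 892 CPM at P56, with no overlap between stages in the order P1, P14, P56. That of the Nkrp1 and Clr stretch was 449, 494 and 469 CPM at P1 and 411, 555 and 504 CPM at P56, where the P56 range covered the P1 range. The difference between stretches was not tested. The Ly49 median moved to -0.41 over 25 peaks with P1 replicate 1 and P56 replicate 2 left out, to -0.50 without P1 replicate 1 alone and to -0.80 with abundance offsets, and every peak in the stretch that these fits tested stayed below 0.

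**Figure D3:**
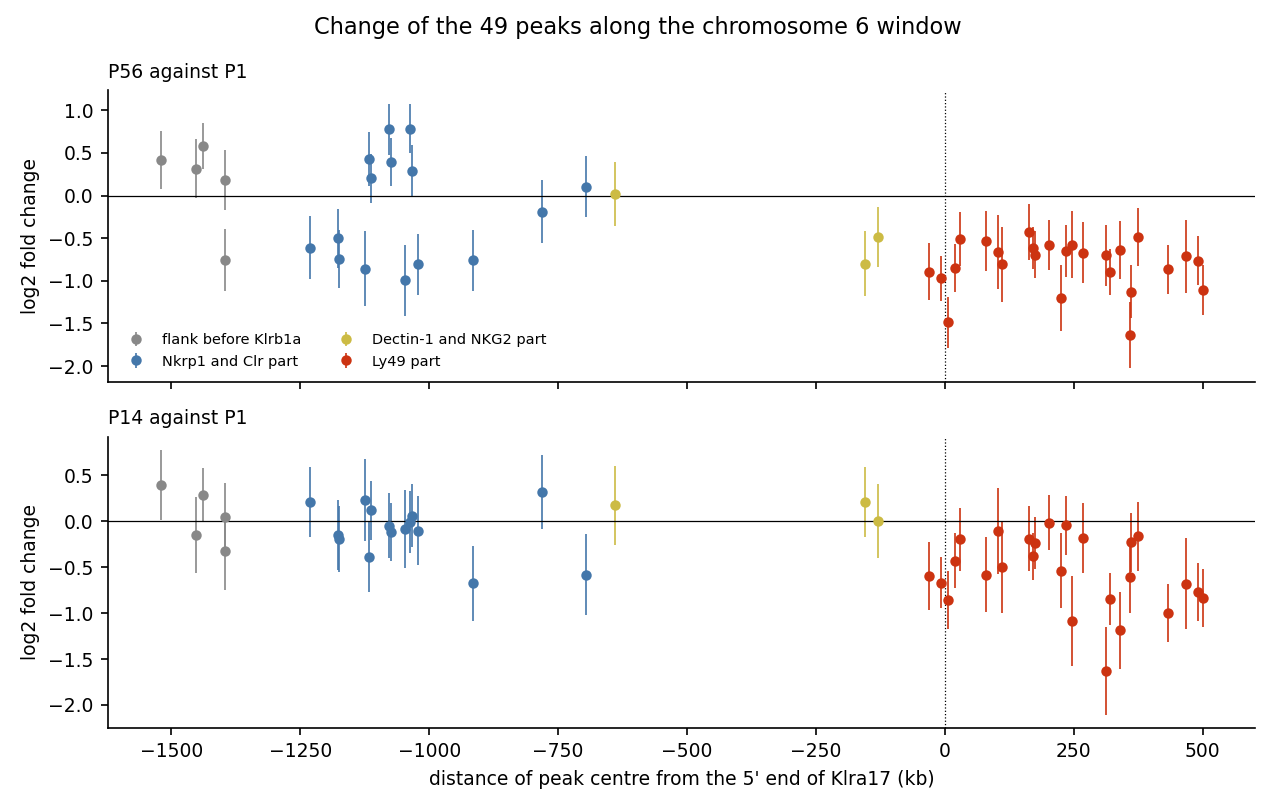
Log2 fold change of each of the 49 peaks (vertical axes; bars are the SE of the edgeR fit) against the distance of the peak's centre from the 5′ end of Klra17 in kb (horizontal axis), for P56 against P1 (top) and P14 against P1 (bottom). Colours mark the stretches of the window. All 26 Ly49 peaks lie below 0 in both panels, while the 15 Nkrp1 and Clr peaks lie on both sides.

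The called peaks both lay near the called Ly49 genes. The first, PK53215 (chr6:129881797-129884681), lay 5125 bp upstream of the 5′ end of Klra17, outside annotated genes. It had 87, 71 and 92 reads at P1, 28, 13 and 10 at P14 and 27, 23 and 14 at P56, or 71.6, 78.8 and 75.3 CPM, then 49.1, 40.5 and 31.6 CPM, then 35.5, 21.7 and 23.4 CPM. All later libraries were below all P1 libraries. The log2 change from P1 to P56 was -1.49 ± 0.30 (SE, edgeR adjusted p = 0.00947), and from P1 to P14 it was -0.86 (0.706). The P56 call was lost without P1 replicate 2 (edgeR adjusted p = 0.0744), P56 replicate 2 (0.168) or P56 replicate 3 (0.0725), with log2 changes of -1.47, -1.32 and -1.42.

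The second, PK53240 (chr6:130235121-130236358), lay 1799 bp upstream of the 5′ end of Klra7. It had 41, 34 and 41 reads at P1, 15, 9 and 4 at P14, and 15, 10 and 2 at P56. In CPM these were 33.7, 37.7 and 33.6 at P1, 26.3, 28.0 and 12.6 at P14 and 19.7, 9.42 and 3.34 at P56. The P1 libraries lay close together above all others, and the P56 libraries spread widely. The log2 change from P1 to P56 was -1.64 ± 0.388 (SE, edgeR adjusted p = 0.0295). It was lost without P1 replicate 2 (edgeR adjusted p = 0.102), P56 replicate 2 (0.243) or P56 replicate 3 (0.162), and with abundance offsets (0.0811). With P1 replicate 1 and P56 replicate 2 left out together, both peaks and all 4 genes named as called above remained called, at edgeR adjusted p of 0.000807 to 0.0367. That fit called more peaks over the whole genome, 297 of 25240 lower against 60 of 25885 in the main fit. Over all TSS regions it called 191 of 32118 lower, against 272 of 33747.

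Other Ly49 peaks lay close to the threshold. PK53214, inside Klra17 (chr6:129866517-129870043), had 105, 92.1 and 141 CPM at P1, 59.6, 80.9 and 75.8 CPM at P14 and 55.2, 47.1 and 73.5 CPM at P56 (-0.97, edgeR adjusted p = 0.0615). PK53254 (-1.11), PK53241 (-1.13) and PK53238 (-0.89) had edgeR adjusted p of 0.0561, 0.0685 and 0.0888. The most accessible peak of the window, PK53225 inside Klra4 (chr6:130044738-130049590), held 173, 124 and 124 CPM at P1, 105, 106 and 114 CPM at P14 and 93.3, 77.3 and 107 CPM at P56, with no P56 library reaching a P1 library (-0.62, edgeR adjusted p = 0.197). Over all peaks it stood at the percentile 97.8 of mean level. The 3 weakest peaks, PK53220, PK53222 and PK53250, had changes of -0.66, -0.81 and -0.71 with edgeR adjusted p of 0.442, 0.354 and 0.395.

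The largest positive changes were in the Nkrp1 and Clr stretch. PK53185 (chr6:128798658-128800259) overlapped the RefSeq promoter of Gm34755, a gene outside the symbol rule, and lay 10017 bp upstream of the 5′ end of Klrb1c. It held 26.3, 34.4 and 34.4 CPM at P1 and 42.0, 74.4 and 43.4 CPM at P56 (0.78 ± 0.299 SE, edgeR adjusted p = 0.185). PK53188 (chr6:128838185-128840121), outside annotated genes, held 29.6, 47.7 and 53.2 CPM at P1 and 47.3, 91.4 and 85.2 CPM at P56 (0.78 ± 0.290 SE, 0.168). The P56 libraries were all above the P1 libraries in the former and overlapped in the latter, and P56 replicate 2 was the highest in both.

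From P1 to P14 edgeR called 0 of the 49 peaks (over all peaks 0.00773% were called higher and 0% lower) with 9 at an unadjusted p under 0.05 (6.04% of all peaks), each of them lower, and DESeq2 called 0 with 8. All 26 Ly49 peaks again had changes below 0, with a median of -0.56, in a comparison that shares the P1 libraries; without P1 replicate 1 it was -0.37, with 22 of 25 below 0. In 9 window peaks every P14 library lay below every P1 library (5.65% of all peaks), and in 1 above (7.39%). The smallest p were those of PK53237 (-1.63, edgeR adjusted p = 0.441), PK53245 (-1.0, 0.53) and PK53238 (-0.85, 0.643). From P14 to P56 edgeR called 0 of 49 (0.00773% of all peaks were called higher and 0% lower) with 7 of 49 at an unadjusted p under 0.05, near the share of all peaks (14.7%), and DESeq2 called 0 with 5. The Ly49 median was then -0.30 (-0.14 without P56 replicate 2), with 20 of 26 changes below 0. In 7 window peaks every P56 library lay below every P14 library (10% of all peaks), and in 2 above (9.11%).

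Overlap of the window peaks with gene starts was counted. Of the 49, 6 overlapped a RefSeq promoter and 1 of these promoters belonged to a receptor gene, Clec2d. Of the 6, 3 lay in the stretch before Klrb1a. Only 38 of the 50 receptor genes have a RefSeq promoter, and the share over all peaks is not given here. None of the 26 Ly49 peaks overlapped a RefSeq promoter. Because the width of the deposited TSS regions is not stated, whether TSS and peak counts of the Ly49 genes share reads was not tested.

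**Figure D4:**
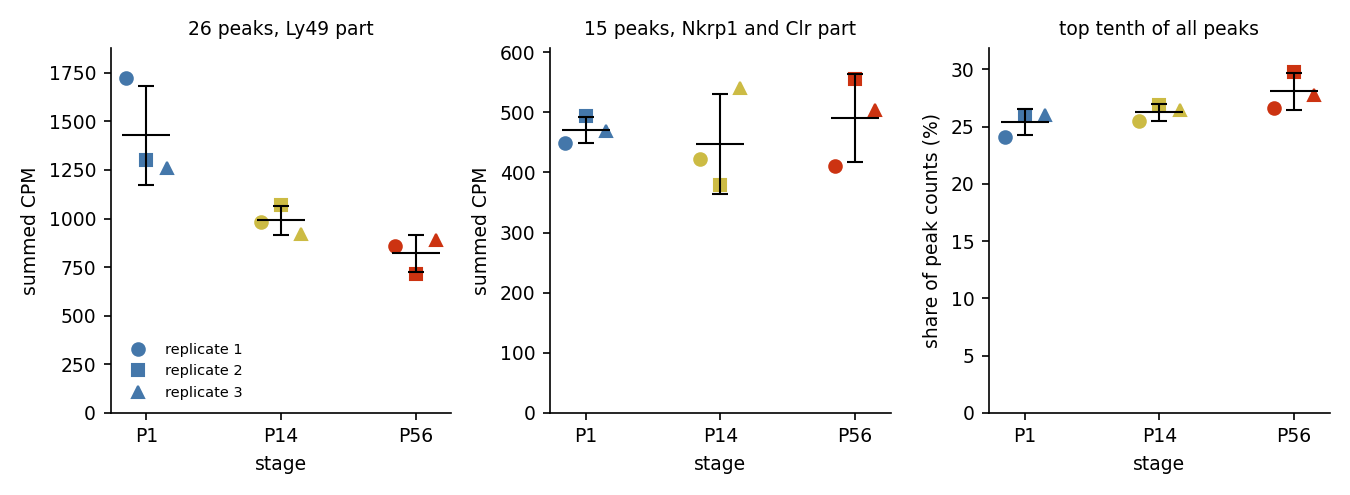
Summed CPM per library of the 26 Ly49 peaks (left) and of the 15 Nkrp1 and Clr peaks (middle), and the share in percent of all peak counts in the most accessible 10% of peaks (right), by stage, with axes from 0. Shapes are replicates, lines are means and bars the SD over 3 libraries. Ly49 sums are highest in the P1 libraries, from 1259 to 1722 CPM, and P1 replicate 1, the library with the lowest share (24.1%), has the highest.

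Partner genes of the receptors had medians above 0. Of 14 adapter and signalling genes 1 rose from P1 to P56 and 0 fell (1.72% of all TSS regions were called higher and 0.806% lower), with a median of 0.21. It was Card9, which relays Dectin-1 signals (log2 change 0.66 ± 0.185 SE, edgeR adjusted p = 0.0463). Its call was kept without P56 replicate 1 (0.036) and lost with any other library left out (0.0639 to 0.125), and with abundance offsets its change was 0.43 (0.276). Tyrobp and Hcst, the DAP12 and DAP10 adapters of activating NK receptors, had -0.37 (0.46) and -0.31 (0.514). Of 14 ligand genes in the table, out of 17 listed, edgeR called 0, with 2 at an unadjusted p under 0.05 and a median of 0.16. Among them H2-D1, a class I ligand of Ly49 receptors, had 0.58 (edgeR adjusted p = 0.0903) and Pdpn, which encodes podoplanin, -0.0041 (0.996). Of 12 transcription regulators of NK cells edgeR called 0, with 2 at an unadjusted p under 0.05 and a median of 0.13.

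Markers of cells that use the receptors were measured in the same fit. The defining NK cell markers (9 of 10 in the table) summed to 180 to 195 CPM at P1, 184 to 240 CPM at P14 and 160 to 205 CPM at P56, and none was at 0. The median change of these 9 markers from P1 to P56 was 0.08, with 4 changes below 0 and 5 above. For them edgeR called 0 with 1 at an unadjusted p under 0.05, Ncr1 (-0.88, edgeR adjusted p = 0.0984). The median level of the NK cell markers stood at the percentile 51.9 of all TSS regions and that of the receptor genes at 48.8. Macrophage genes stood at 59.6, T cell genes at 64.6, platelet genes at 65.7 and fibroblast genes at 75.5. Pan-leukocyte genes stood at 82.9, endothelial genes at 84.8 and cardiomyocyte markers at 96.3. Medians from P1 to P56 were 0.11 for 9 T cell genes, 0.04 for 10 macrophage genes, -0.04 for 6 pan-leukocyte genes, -0.01 for 10 endothelial genes, 0.03 for 6 platelet genes and -0.22 for 7 fibroblast genes, and edgeR called 0 in each, with 0, 2, 1, 2, 1 and 4 at an unadjusted p under 0.05 in that order. Over all TSS regions 7278 of 33747 had such a p. The median was 0.87 for 12 cardiomyocyte genes, of which 7 rose (1.72% of all TSS regions did). The part of other cell types in the receptor results was not tested.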

How the data were processed

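ATAC-seq libraries of sorted cardiomyocyte nuclei were analysed, 3 at each of 3 stages, grouped by the stage in the labels. The authors deposited unnormalised read counts per TSS region, of a width not stated, and per peak of a common list; every row had a mean count of at least 10. The submitters' processing notes name the build GRCm38 and, with no roles, featureCounts 1.4.2, bedtools 2.26, BWA 0.7.10, MACS 1.4.0, bcl2fastq 2.17.1.14 and SAMtools 1.3.1; handling of multiply mapped reads and the pooling behind the peaks are not given in the sources used here. The counts carry no strand.

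Each whole table was fitted with edgeR 4.0.16 in R 4.3.3: TMM scaling, the default expression filter (which kept 33747 TSS regions and 25885 peaks), a coefficient for each stage, and a two-sided quasi-likelihood F test with Benjamini-Hochberg adjustment over all rows at 0.05. SE is the absolute log2 change divided by the square root of F. CPM are TMM-scaled. DESeq2 1.42.0 was an alternative, as were other scalings, filters, fits of 2 stages, a replicate block, each library left out, P1 replicate 1 and P56 replicate 2 both left out, an adjusted p below 0.1, a window set by the genes and, added after seeing the data, loess offsets against abundance (span 0.3).

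The fits were tested on simulated counts for P56 against P1, with 100 regions changed 2-fold and 100 changed 3-fold. Of these, 32% and 86% were recovered among 33233 TSS regions, and 16% and 74% among 25734 peaks. False calls numbered 12 among the TSS regions and 2 among the peaks. Counts were drawn independently around 1 mean per region, without the shifts of whole libraries seen in the data. These rates may therefore not hold for the real counts. How far libraries of a stage differed beyond sampling noise was unequal. Chi-squared per degree of freedom, near 1 for sampling noise alone, was 3.03 between the TSS counts of P1 replicates 1 and 3. In peaks that pair gave 4.78, and P56 replicates 1 and 2 gave 4.24. Pairs of P14 libraries stayed close to sampling noise, with no value above 1.10 in either table. P56 replicates 1 and 3 were also close, at 1.16 for TSS regions and 1.23 for peaks. The p-values rest on a spread between libraries that was estimated over all stages together.

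Members, roles and lists were chosen with earlier results of these data known, so no list was tested. Named were members called in any comparison, the 2 highest, 2 lowest and 2 smallest p per role, the 3 smallest p per comparison, a panel of well-known receptors and, for peaks, the 3 highest, 3 lowest and 3 smallest p. Gene positions, strands and promoters came from RefSeq tables of GRCm38.p6; all 50 TSS members had a position and 38 a promoter.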

Additional observations from a re-analysis of the deposited data

How the results depend on the processing

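Every direction of the 4 called genes and 2 called peaks was kept under every alternative that gave a value. Counts of calls were less stable. From P1 to P56 the 4 receptor TSS calls became 9 with library size alone, 0 with DESeq2's Wald test, 1 when 2 stages were fitted alone, 10 at an adjusted p below 0.1, 5 with P1 replicate 1 and P56 replicate 2 left out, and 1 to 4 with each library left out. The 2 peak calls became 4 with library size, 0 with the Wald test, 4 with loess offsets, 6 at an adjusted p below 0.1, and 0 to 6 with each library left out. With those 2 libraries left out, 1 of 45 receptor TSS regions and 2 of 48 window peaks were called from P1 to P14, against 0. Over all regions that fit called 293 of 32118 TSS regions and 1039 of 25240 peaks, against 4 and 2 in the main fit. The median TSS change from P1 to P56 (-0.53) was -0.67 with library size, -0.69 at a mean count of at least 20, -0.34 with loess offsets, -0.30 without both libraries, and -0.62 to -0.47 with each library left out. That from P1 to P14 (-0.36) was -0.42, with loess offsets -0.27, without both -0.30, and -0.38 to -0.22 with each left out. That from P14 to P56 (-0.13) was -0.20 with library size, -0.29 at the higher minimum, -0.23 with 2 stages alone, -0.10 without both, and -0.25 to -0.11 with each left out. The median level at P1 (20.6 CPM) was 20.4 with DESeq2's size factors and 21.5 with library size or as an unscaled share. Library size moved the median of all TSS regions to -0.14. Over all TSS regions the 581 higher and 272 lower calls became 319 and 778 with library size and 289 and 3 with the Wald test. They became 123 and 100 with loess offsets and 122 and 25 without P56 replicate 2. The 55 and 60 peak calls became 64 and 13 with the Wald test and 3 and 4 without P1 replicate 2. They became 0 and 0 without P56 replicate 2 and 271 and 378 without P56 replicate 1. The cause of these shifts was not tested. Among the 56 genes and peaks chosen by the naming rule, a call was lost in 34 of the values under alternatives and gained in 33.

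With the replicate number as a block, 8 receptor TSS regions, each lower, and 8 window peaks were called from P1 to P56. Calls also rose over all regions. That fit called 1387 of 33747 TSS regions higher and 595 lower, and 273 of 25885 peaks higher and 411 lower. The labels state no pairing by these numbers. Correlations of same-numbered deviations ran from -0.178 to 0.445 and those of differently numbered ones from -0.50 to 0.489. Whether the numbers pair the libraries is thus not settled, and the block result is given only here. Low counts at P14, the shallowest stage, limit what the comparisons with it can detect.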
